A study of Arabidopsis thaliana with 26 samples.

Results

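The general phenylpropanoid enzymes were followed in Arabidopsis thaliana seedlings moved to high light, as 10 genes taken by name and gene ID. No measured value entered the rule, though earlier results of these data were known when the genes were chosen. They are 4 genes of phenylalanine ammonia-lyase (PAL1, PAL2, PAL3 and PAL4), cinnamate 4-hydroxylase (C4H), 4 genes of 4-coumarate-CoA ligase (4CL1, 4CL2, 4CL3 and 4CL5) and ferulate 5-hydroxylase (F5H), among 33602 gene IDs counted. All 10 passed the filter on low counts, in a table of 21449 tested genes. The plants were whole Col-0 seedlings that had grown for 7 days in continuous light, of the same ecotype in every group, with 25 plants pooled per library. High light, at an intensity of 1200 (in µmol photons per m2 and second) and a leaf temperature of 22 °C, lasted 0.5, 6, 12, 24, 48 or 72 h. Recovery seedlings were returned to growth light for 14 h after the 72 h of high light. Growth light controls stayed at 60 in the same unit and were sampled at the same 6 times. Each of the 13 groups had 2 libraries.

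PAL removes ammonia from phenylalanine to give cinnamate, C4H, a cytochrome P450, hydroxylates cinnamate to 4-coumarate, and 4CL joins 4-coumarate to coenzyme A. The coumaroyl-CoA formed there feeds the flavonoid branch through chalcone synthase and the lignin branch through HCT. F5H, another P450, acts further down on the way to syringyl lignin and to sinapate esters, so it is a branch enzyme listed with the general steps. In seedlings these routes yield flavonols, anthocyanins and sinapate esters, which absorb ultraviolet light, and the lignin of xylem and root barriers. In Arabidopsis, 4CL3 is known for its role in flavonoid formation, while 4CL1, 4CL2 and 4CL5 are tied mostly to lignin and other phenylpropanoids.

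Levels are counts scaled by TMM to the library total (CPM), and effects are log2 fold changes ± SE from edgeR's quasi-likelihood test, with n = 2 libraries per group and Benjamini-Hochberg adjustment over all tested genes. A gene was called at an adjusted p below 0.05. Whether the 2 libraries of each group were grown apart is not said in the labels, so a p-value reflects the spread between the samples at hand, possibly technical. Totals ran from 13637677 to 29697279 counts per library, and the lowest count of any of the 10 genes in a library was 146. Replicates correlated at 0.9889 to 0.9941 over log2 CPM of the tested genes, and single outlying libraries were not tested for. These are bulk samples, so fewer cells of a type and less RNA per cell cannot be told apart. The seedlings held roots and shoots. The 12 root markers summed to 88.4 to 92.1 CPM in high light at 72 h, against 156 to 158 CPM in growth light. There 9 of the 12 were lower and 0 higher (0 also at an unadjusted p below 0.05 and by DESeq2). Lower and higher counts were 2 and 0 at 0.5 and 6 h, 3 and 3 at 12 h, 7 and 1 at 24 h, and 7 and 2 at 48 h. Over the 6 times 8.29% to 23.9% of all genes were lower and 13.5% to 26% higher, with 22.3% in each direction at 72 h. Of 5 shoot markers, 4 were lower at 6 and 48 h and 3 at 12, 24 and 72 h, where 18.2% to 23.9% of all genes were lower. At these times 0 were higher (0 also at an unadjusted p below 0.05 and by DESeq2), and the median was -0.68 at 6 h. The 48 h count was 2 without high light replicate 1. The summed level of the 5 shoot markers, which follows the most abundant of them, did not always go with these counts. At 12 h the sums were 17800 to 18942 CPM in high light, above the 15546 to 17212 CPM in growth light. They overlapped at 6 h (13565 to 17405, against 15845 to 17273 CPM). High light sums were the lower ones at 0.5, 24, 48 and 72 h, with 12993 to 13178, against 15855 to 16168 CPM, at 72 h. Of 6 xylem and secondary wall markers 3 were higher and 0 lower at 12 h (0 also at an unadjusted p below 0.05 and by DESeq2). At that time 24.1% and 21.1% of all genes were higher and lower. Their sums there were 204 to 205 CPM in high light, against 181 to 182 CPM in growth light. Higher and lower counts were 0 and 0 at 0.5 h, 1 and 0 at 6 h, and 2 and 1 at 24 h. They were 0 and 1 at 48 h and 0 and 2 at 72 h. The 72 h sums were 122 to 144 CPM in high light, against 154 CPM in both growth light libraries. The part of these changes in the results was not tested.

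The 250 bases before the annotated start of each gene were read from the RefSeq TAIR10.1 genome for all 10 genes. They were searched on both strands for AC elements, which MYB factors of this pathway are known to bind, and for the G-box, bound by bZIP factors such as HY5. The letters were ACCTACC for AC-I, ACCAACC for AC-II, ACCTAAC for AC-III and CACGTG for the G-box. The 4CL3 window held 2 AC-I elements, at bases -120 and -68 counted from the gene start. AC-I occurred, in a single copy or more, in 1.16% of 27438 such windows of the genome. The 4CL2 window held 2 AC-II elements, at -140 and -31, a motif present in 2.69% of windows. The PAL4 window held a G-box at -117, present in 6.49% of windows, and no matches overlapped. The windows of the other 7 genes matched none of the 4 motifs, which says only that these letters are not in those bases. The longest run shared by the PAL1 and PAL2 windows was CTACTCCCAT, at -36 in PAL1 and -65 in PAL2. It occurred in 9 of the 27438 windows (0.0328%), a count that includes these 2. Because it was picked as their longest match, its presence in both was fixed by the choice. Its part in the levels of the 2 genes was not tested, nor was that of the AC elements or the G-box in the levels of their genes. Both windows are shown because the levels of these 2 genes moved together, and the 4CL3 and 4CL2 windows because their genes moved apart. The sequences run 5′ to 3′ in the direction of the gene, with the shared run or the motifs in capitals.
PAL1 (chr2:15560756-15561005, minus strand): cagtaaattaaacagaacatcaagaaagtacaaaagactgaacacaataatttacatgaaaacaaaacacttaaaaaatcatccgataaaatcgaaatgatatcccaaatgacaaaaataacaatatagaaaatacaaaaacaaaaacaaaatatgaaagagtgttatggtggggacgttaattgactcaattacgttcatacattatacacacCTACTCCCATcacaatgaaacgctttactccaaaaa
PAL2 (chr3:19747115-19747364, minus strand): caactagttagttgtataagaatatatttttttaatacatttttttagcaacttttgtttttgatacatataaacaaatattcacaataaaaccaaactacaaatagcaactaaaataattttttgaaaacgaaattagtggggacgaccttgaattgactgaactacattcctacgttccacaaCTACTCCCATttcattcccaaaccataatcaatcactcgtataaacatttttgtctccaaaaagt
4CL3 (chr1:24171636-24171885, minus strand): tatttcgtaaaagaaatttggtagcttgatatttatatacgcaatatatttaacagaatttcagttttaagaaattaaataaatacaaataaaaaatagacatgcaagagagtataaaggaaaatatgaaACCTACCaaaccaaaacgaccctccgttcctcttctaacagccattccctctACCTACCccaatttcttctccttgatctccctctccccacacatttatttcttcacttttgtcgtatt
4CL2 (chr3:7457405-7457654, minus strand): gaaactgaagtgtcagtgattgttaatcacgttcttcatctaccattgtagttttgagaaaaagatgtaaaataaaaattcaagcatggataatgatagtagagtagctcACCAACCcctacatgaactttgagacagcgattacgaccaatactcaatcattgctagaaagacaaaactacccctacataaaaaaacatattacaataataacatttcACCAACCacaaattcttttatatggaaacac

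Within each family 1 or 2 genes carried most of the transcript when levels were divided by exonic length. PAL1 held 54% to 67.5% of the PAL level per exonic kb over the 13 groups and PAL2 30.9% to 39.6%. PAL3 held 0.352% in high light at 24 h, against 2.71% in growth light, and reached 6.44% in growth light at 12 h. PAL4 held between 0.901% and 3.09%. The summed PAL level was 1073 CPM per kb in high light at 24 h, against 463 in growth light at 24 h, and 178 in recovery. Among the 4CL genes 4CL3 stood above 4CL1 in high light at 12 and 24 h and below it in the other 11 groups. At 12 h of high light 4CL3 held 47.3% of the family level and 4CL1 42.8%. 4CL3 held 51.6% of the family level in high light at 24 h, against 23% in growth light, while 4CL1 held 38.7%, against 56.8%. In the 24 h high light libraries 4CL3 made up 50.2% and 53.1%, against 21.6% and 24.5% in growth light, so the groups did not overlap. At 72 h of high light 4CL3 held 41.8% and 4CL1 45%. In recovery 4CL3 held 14.1% and 4CL1 60.9%. 4CL2 ranged from 7.5% (high light at 12 h) to 19.7% (recovery), and 4CL5 stayed between 1.76% and 5.75%. These shares are descriptions with no test. Of 50-base windows in the exons, 98.91% of those of PAL1 and 98.89% of those of PAL2 were unique in the genome, with 31 windows shared between the 2 genes, and 100% were unique in the other 8.

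**Figure D1:**
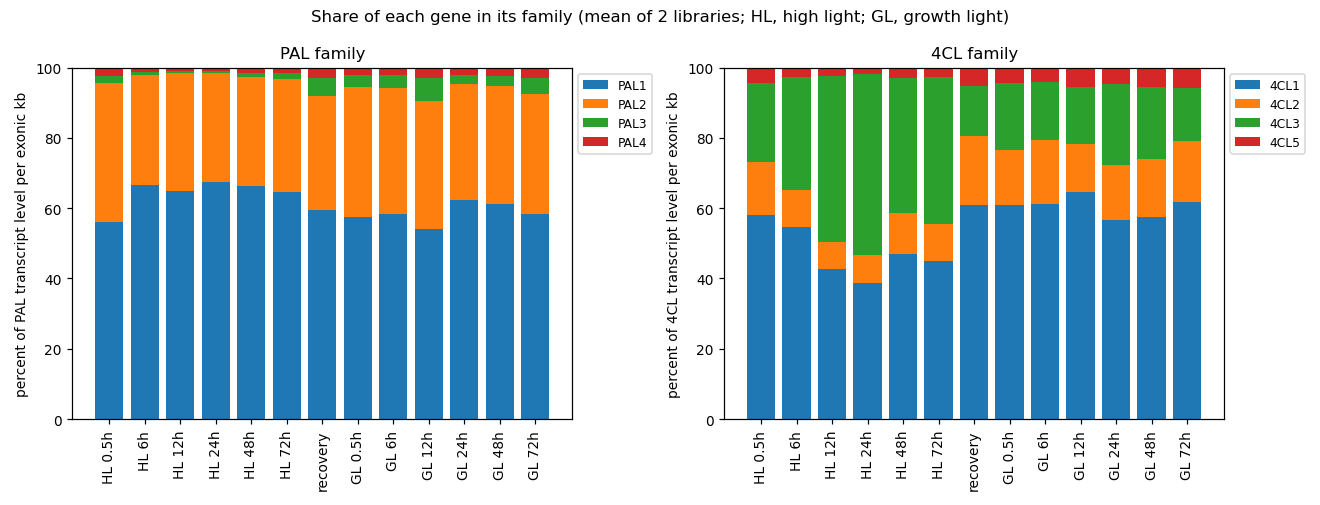
Share of each gene in the summed level of its family, as percent of CPM per exonic kb, mean of 2 libraries per group, with high light groups first, then recovery, then growth light. The 4CL3 share reaches 51.6% in high light at 24 h, against 23% in growth light at 24 h, and PAL1 and PAL2 hold most of the PAL bars throughout.

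At 0.5 h of high light 0 of the 10 genes were called higher and 3 lower, where 13.5% and 8.29% of all tested genes were called higher and lower. By edgeR's unadjusted p below 0.05, 1 was higher, and DESeq2 called 0. At 6 h 6 were higher and 1 lower (22.9% and 18.2% of all genes). At 12 h 6 were higher and 2 lower (24.1% and 21.1%), and at 24 h 6 were higher and 3 lower (26% and 23.9%). At 48 h 3 were higher and 4 lower (24.5% and 23%), and at 72 h 4 were higher and 5 lower (22.3% of all genes in each direction). The median over the 10 genes was -0.18 at 0.5 h, 0.48 at 6 h, 0.50 at 12 h, 0.33 at 24 h, -0.11 at 48 h and -0.10 at 72 h. The median over all tested genes lay between -0.01 and 0.03 at these times and in the recovery comparisons. A single median hides a split, since PAL1, C4H and 4CL3 were higher from 6 to 72 h while PAL3 was lower at all 6 times. Each effect at a time was computed from its own pair of groups. In every one of these calls both high light libraries lay on the same side of both growth light libraries. With 2 libraries per group this adds no support to a call. At 0.5 h it held also for PAL1, PAL2, C4H, 4CL5 and F5H, which were not called, and its share over all genes was not counted.

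**Figure D2:**
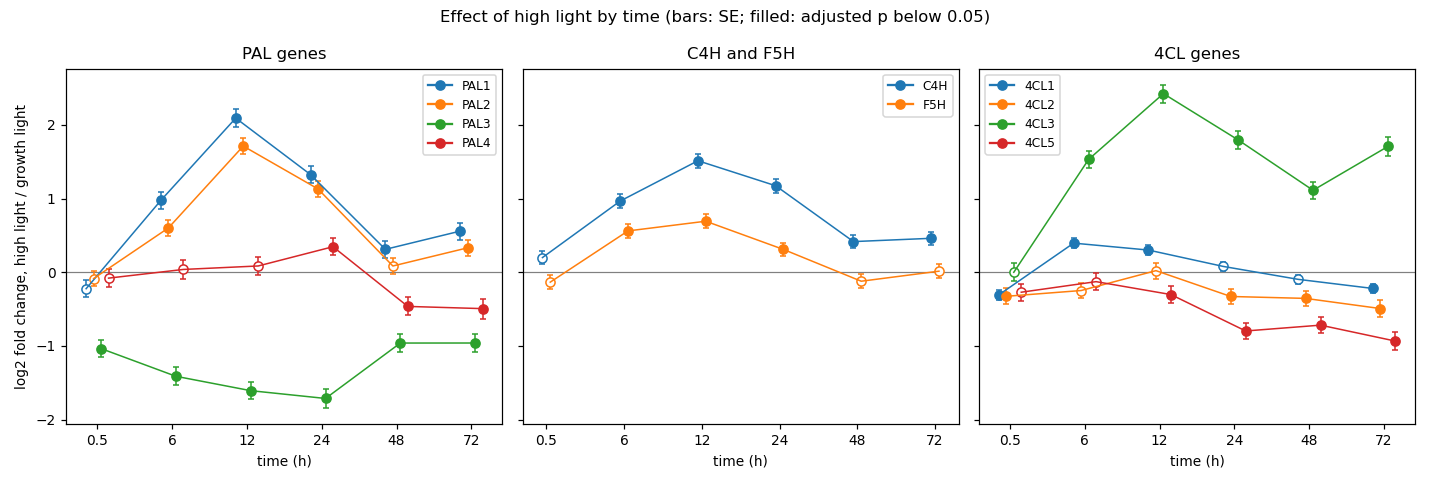
Log2 fold change of high light over growth light (y axis) by time in hours (x axis) for the PAL genes, C4H and F5H, and the 4CL genes. Bars are SE, and filled points have an adjusted p below 0.05. The points of PAL1, PAL2, C4H and 4CL3 stand highest at 12 h, at 2.09, 1.71, 1.51 and 2.42, and those of PAL3 lie below 0 at each time.

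PAL1 (AT2G37040, chr2:15557367-15560755, minus strand) and PAL2 (AT3G53260, chr3:19744018-19747114, minus strand) are the main lyases of the general pathway. At 0.5 h PAL1 stood at 601 and 603 CPM in high light, against 730.3 and 676 CPM in growth light. At 6 h it stood at 971 and 1186 CPM in high light, against 625 and 470.4 CPM in growth light. At 12 h it stood at 1581 and 1499.9 CPM in high light, against 382 and 341 CPM in growth light. The groups did not overlap at any of these times, and the direction differed between 0.5 h and the later times. At 24 h it reached its highest level, 1965 and 2281 CPM in high light, against 815 and 879.8 CPM in growth light. At 48 h it stood at 799.7 and 895 CPM in high light, against 661 and 705 CPM in growth light. The 72 h libraries of PAL1 held 625 and 638 CPM in high light, against 441 and 417 CPM in growth light. Both high light libraries remained above both growth light libraries. The effect on PAL1 was -0.22 ± 0.11 (adjusted p = 0.187) at 0.5 h, which missed the threshold, 0.98 ± 0.11 (adjusted p = 3.94e-07) at 6 h, 2.09 ± 0.12 (adjusted p = 5.2e-12) at 12 h and 1.33 ± 0.11 (adjusted p = 2.59e-09) at 24 h. The effect was 0.31 ± 0.11 (adjusted p = 0.028) at 48 h and 0.56 ± 0.11 (adjusted p = 0.000385) at 72 h. The highest high light level came at 24 h but the largest fold at 12 h, where growth light was at its lowest PAL1 level among the 6 times, 361 ± 29.0 CPM (SD, n = 2). The 48 h call was lost without growth light replicate 1 (adjusted p = 0.152), growth light replicate 2 (0.0556) or high light replicate 2 (0.214).

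PAL2 followed a similar course at a lower level. At 12 h it stood at 802 and 773 CPM in high light, against 251 and 229.7 CPM in growth light. The 24 h libraries of PAL2 held 895 and 1027 CPM in high light, against 416 and 462 CPM in growth light. At 48 h it stood at 370.5 and 407 CPM in high light, against 358 and 375 CPM in growth light. The groups were apart at 12 and 24 h and overlapped at 48 h. PAL2 rose by 0.60 ± 0.11 (adjusted p = 7.77e-05) at 6 h, 1.71 ± 0.11 (adjusted p = 2.95e-11) at 12 h and 1.13 ± 0.11 (adjusted p = 9.03e-09) at 24 h. Its effect was -0.09 ± 0.11 at 0.5 h (adjusted p = 0.649) and 0.08 ± 0.11 at 48 h (0.536), neither past the threshold. At 72 h PAL2 was called higher (0.33 ± 0.11, adjusted p = 0.0146), at 319 and 302 CPM in high light, against 247 and 246 CPM in growth light. That call was lost without growth light replicate 1 (adjusted p = 0.0709), growth light replicate 2 (0.0682) or high light replicate 1 (0.104). Against the mean of all 6 growth light groups, an alternative added after the data were seen, the PAL2 value at 0.5 h turned to 0.32 (adjusted p = 0.00222) and that at 72 h to -0.11 (0.265), and the 72 h value of PAL1 was 0.15 (0.148).

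**Figure D3:**
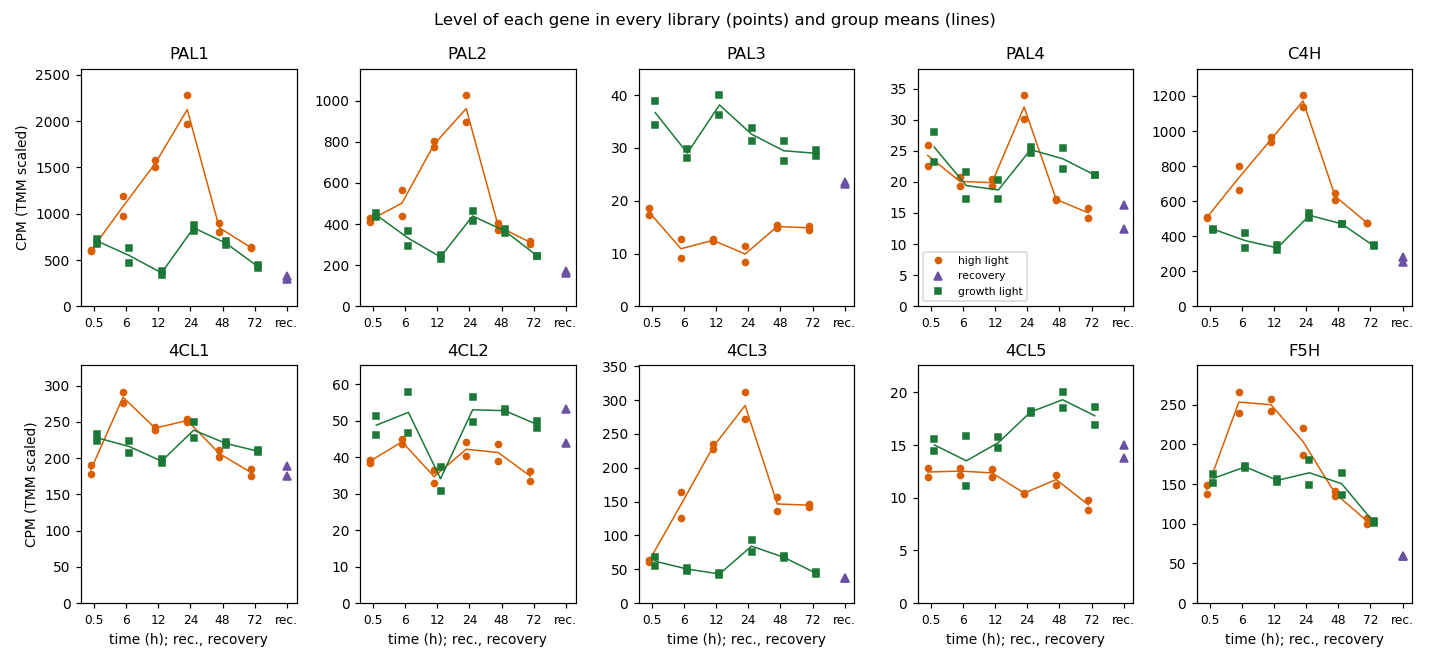
Level of each gene in CPM with TMM scaling (y axis, from 0) by time in hours, with recovery at the right. Points are libraries and lines join group means, orange circles for high light, purple triangles for recovery and green squares for growth light. The PAL1, PAL2, C4H and 4CL3 lines of high light peak at 24 h, where PAL1 averaged 2123 ± 223 CPM, against 847 ± 46.1 CPM in growth light, and PAL3 runs lower in high light than in growth light throughout.

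PAL3 (AT5G04230, chr5:1160569-1163957, plus strand), the PAL isoform known for the lowest activity in vitro, was lower in high light at every time. At 0.5 h it stood at 18.6 and 17.2 CPM in high light, against 34.4 and 38.9 CPM in growth light. The 6 h libraries of PAL3 held 9.08 and 12.7 CPM in high light, against 29.9 and 28.2 CPM in growth light. The 12 h libraries of PAL3 held 12.7 and 12.3 CPM in high light, against 36.3 and 40.0 CPM in growth light. The fall was present at the first time sampled, when 4CL1 and 4CL2 were also called lower and the other 7 genes were not past the threshold. At 24 h PAL3 stood at 8.47 and 11.4 CPM in high light, against 33.8 and 31.4 CPM in growth light. The 72 h libraries of PAL3 held 14.5 and 15.3 CPM in high light, against 28.4 and 29.6 CPM in growth light. Its effects were -1.04 ± 0.12 at 0.5 h (adjusted p = 4.92e-07), -1.41 ± 0.12 at 6 h (6.34e-09), -1.61 ± 0.12 at 12 h (3.62e-10) and -1.71 ± 0.12 at 24 h (1.45e-10). At 48 and 72 h they were -0.96 ± 0.12 (7.51e-07) and -0.96 ± 0.13 (2.55e-06). Each of these 6 calls held in all alternatives run, with each library left out included.

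PAL4 (AT3G10340, chr3:3203988-3208135, plus strand) is an active lyase in vitro and had the lowest or second-lowest level per kb of the family in every group. Its window before the gene start, with the G-box in capitals, is shown because it was the single match to that motif among the 10 genes.
PAL4 (chr3:3203738-3203987, plus strand): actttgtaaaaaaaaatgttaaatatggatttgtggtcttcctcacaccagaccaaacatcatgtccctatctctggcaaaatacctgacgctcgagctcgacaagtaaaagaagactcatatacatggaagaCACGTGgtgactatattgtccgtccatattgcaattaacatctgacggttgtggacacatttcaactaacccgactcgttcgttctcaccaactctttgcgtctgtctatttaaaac

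PAL4 levels ran from 12.4 CPM (recovery) to 34.0 CPM (high light at 24 h) over all libraries. At 24 h PAL4 was called higher (0.35 ± 0.12, adjusted p = 0.0166), at 34.0 and 30.1 CPM in high light, against 24.7 and 25.7 CPM in growth light. It was called lower at 48 h (-0.46 ± 0.12, adjusted p = 0.00335) and at 72 h (-0.49 ± 0.14, adjusted p = 0.00506), where it stood at 15.8 and 14.3 CPM in high light, against 21.1 and 21.1 CPM in growth light. The effects at 0.5, 6 and 12 h were -0.08 ± 0.12, 0.04 ± 0.12 and 0.09 ± 0.12, all short of the threshold. The 24 h call was lost with upper-quartile scaling (adjusted p = 0.0583), without growth light replicate 1 (0.0906) and without high light replicate 1 (0.157). The 48 h call was lost without growth light replicate 1 (0.0586) and the 72 h call without high light replicate 2 (0.0599).

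C4H (AT2G30490, chr2:12993625-12996012, minus strand) is encoded by a single gene in Arabidopsis, so its level is that of the whole step. At 0.5 h it stood at 507 and 504 CPM in high light, against 444 and 437 CPM in growth light. The 6 h libraries of C4H held 666 and 801 CPM in high light, against 417 and 333 CPM in growth light. The 12 h libraries of C4H held 966 and 937 CPM in high light, against 347 and 319 CPM in growth light. High light was above growth light at each of these times. At 24 h it stood at 1138 and 1206 CPM in high light, against 505 and 534 CPM in growth light. The 48 h libraries of C4H held 607 and 649 CPM in high light, against 469 and 473 CPM in growth light. The 72 h libraries of C4H held 474 and 476 CPM in high light, against 348 and 342 CPM in growth light. The gap between the groups was narrower at 48 and 72 h than at 24 h, with no overlap. C4H rose by 0.97 ± 0.09 (adjusted p = 1.91e-08) at 6 h, 1.51 ± 0.09 (adjusted p = 1.99e-11) at 12 h and 1.17 ± 0.09 (adjusted p = 5.1e-10) at 24 h. At 48 h the effect was 0.42 ± 0.09 (adjusted p = 0.000694), and at 72 h 0.46 ± 0.09 (adjusted p = 0.000297). At 0.5 h it was 0.20 ± 0.09 and missed the threshold (adjusted p = 0.135). Of 5 genes for partners of these P450s, 2 were higher and 1 lower at 6 h (22.9% and 18.2% of all genes), 2 and 2 at 12 h (24.1% and 21.1%), and 2 and 0 at 24 h (26% and 23.9%; 0 lower also at an unadjusted p below 0.05 and by DESeq2). The count of 3 called at 6 h was 1 with the compared groups alone and without growth light replicate 1 or high light replicate 2. The count of 4 at 12 h was 2 with no filter and without growth light replicate 2 or high light replicate 2. ATR2, a P450 reductase that passes electrons to C4H and F5H, stood at 435 and 422 CPM in high light, against 172 and 195 CPM in growth light at 0.5 h (1.22 ± 0.07, adjusted p = 1.41e-11). ATR2 was higher also at 6, 12 and 24 h, by 0.53, 0.45 and 0.81, and its effects at 48 and 72 h were 0.12 and 0.05, short of the threshold.

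4CL3 (AT1G65060, chr1:24167202-24171635, minus strand), the ligase with 2 AC-I elements in the window shown above, had the widest range of the 10 genes, with a 7.99-fold ratio between its highest and lowest group means. At 0.5 h 4CL3 stood at 63.4 and 60.0 CPM in high light, against 68.8 and 54.7 CPM in growth light. The 6 h libraries of 4CL3 held 126 and 165 CPM in high light, against 52.4 and 48.0 CPM in growth light. The 12 h libraries of 4CL3 held 234 and 227 CPM in high light, against 43.9 and 42.0 CPM in growth light. The groups overlapped at 0.5 h and were apart from 6 h on. At 24 h it stood at 271 and 312 CPM in high light, against 75.2 and 93.0 CPM in growth light. The 48 h libraries of 4CL3 held 136 and 157 CPM in high light, against 66.2 and 69.2 CPM in growth light. The 72 h libraries of 4CL3 held 143 and 147 CPM in high light, against 45.3 and 43.3 CPM in growth light. Its level in high light at 72 h thus lay close to that at 48 h, while growth light was lower at 72 h than at 48 h. 4CL3 rose by 1.53 ± 0.12 (adjusted p = 9.88e-10) at 6 h, 2.42 ± 0.12 (adjusted p = 8.36e-13) at 12 h and 1.80 ± 0.12 (adjusted p = 2.32e-11) at 24 h. At 48 h the effect was 1.11 ± 0.12 (adjusted p = 6.88e-08), and at 72 h 1.71 ± 0.12 (adjusted p = 2.35e-10), and all 5 calls held in every alternative run.

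The other ligases followed other courses. 4CL1 (AT1G51680, chr1:19158746-19161737, minus strand), the main lignin ligase, was lower at 0.5 h (-0.31 ± 0.06, adjusted p = 0.000998), at 179 and 190.2 CPM in high light, against 233 and 223 CPM in growth light. It was higher at 6 h (0.40 ± 0.06, adjusted p = 3.18e-05), at 277 and 292 CPM in high light, against 224 and 208 CPM in growth light, and at 12 h (0.30 ± 0.06, adjusted p = 0.000542). Its effects at 24 and 48 h were 0.08 ± 0.06 and -0.10 ± 0.06, short of the threshold, and at 72 h it was called lower (-0.22 ± 0.07, adjusted p = 0.00863). The group means of 4CL1 spanned a ratio of 1.58 over all 13 groups, against 7.99 for 4CL3. The 72 h call was lost without growth light replicate 2 (adjusted p = 0.051) or high light replicate 1 (0.0726).

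4CL2 (AT3G21240, chr3:7454269-7457404, minus strand) and 4CL5 (AT3G21230, chr3:7448040-7452106, minus strand) are neighbours on chromosome 3, in the same orientation. 4CL2, with 2 AC-II elements before its start, was called lower at 0.5, 24, 48 and 72 h, with effects of -0.33 ± 0.11, -0.33 ± 0.11, -0.35 ± 0.11 and -0.49 ± 0.11 (adjusted p = 0.0349, 0.013, 0.00851 and 0.00116). At 72 h it stood at 33.4 and 36.2 CPM in high light, against 49.9 and 48.1 CPM in growth light. At 6 and 12 h its effects were -0.25 ± 0.11 (adjusted p = 0.068) and 0.02 ± 0.11 (0.892). Against the mean of all 6 growth light groups the 12 h value turned to -0.46 (adjusted p = 6.08e-05). The 0.5 h call was lost without growth light replicate 1 (0.228) or high light replicate 1 (0.153) or 2 (0.109), and the 24 h call without growth light replicate 1 (0.156) or high light replicate 1 (0.115). The 48 h call was lost without high light replicate 1 (0.105).

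4CL5, a minor ligase that also accepts sinapate in vitro, was called lower from 12 h on. At 12 h it stood at 11.9 and 12.8 CPM in high light, against 15.8 and 14.7 CPM in growth light. The 24 h libraries of 4CL5 held 10.4 and 10.5 CPM in high light, against 18.1 and 18.2 CPM in growth light. The 72 h libraries of 4CL5 held 9.82 and 8.84 CPM in high light, against 16.9 and 18.6 CPM in growth light. The high light libraries lay below the growth light libraries at all 3 times. The effects were -0.80 ± 0.11 (adjusted p = 4e-06) at 24 h, -0.72 ± 0.11 (adjusted p = 1.45e-05) at 48 h and -0.93 ± 0.13 (adjusted p = 2.63e-06) at 72 h. At 12 h the call (-0.30 ± 0.11, adjusted p = 0.0314) was lost by DESeq2 (0.0677) and without growth light replicate 1 (0.181), high light replicate 1 (0.17) or high light replicate 2 (0.0559). At 0.5 and 6 h the effects were -0.27 ± 0.12 and -0.13 ± 0.12, short of the threshold. Root markers were lower too at 24 h, where 7 of 12 were lower and 1 higher (23.9% and 26% of all genes). Their sums were 106 to 122 CPM in high light, against 152 to 159 CPM in growth light. Their part in the fall of 4CL5 was not tested.

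F5H (AT4G36220, chr4:17137313-17139777, minus strand) was higher for a shorter time than C4H. At 6 h it stood at 240.3 and 267 CPM in high light, against 171 and 173 CPM in growth light. The 12 h libraries of F5H held 258 and 243 CPM in high light, against 153 and 157 CPM in growth light. The 24 h libraries of F5H held 186 and 221 CPM in high light, against 148 and 180.2 CPM in growth light. At 72 h it stood at 99.2 and 107 CPM in high light, against 101 and 104 CPM in growth light, and the groups overlapped. The effects on F5H were 0.56 ± 0.09 (adjusted p = 4.77e-05) at 6 h, 0.69 ± 0.09 (adjusted p = 2.87e-06) at 12 h and 0.31 ± 0.09 (adjusted p = 0.00909) at 24 h. At 0.5, 48 and 72 h they were -0.13 ± 0.10, -0.12 ± 0.09 and 0.01 ± 0.10, short of the threshold. The 24 h call was lost with the 24 h groups alone in the fit (adjusted p = 0.0598), without growth light replicate 1 (0.198) and without high light replicate 2 (0.181). Against the mean of all 6 growth light groups, the 72 h value turned to -0.52 (adjusted p = 5.17e-06).

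The change of the light effect itself was tested between neighbouring times, which share a group pair from 1 test to the next. From 0.5 to 6 h the effect changed in 6 of the 10 genes (29.6% of all tested genes in either direction). It grew for PAL1 by 1.20 ± 0.16 (adjusted p = 6.54e-06), for 4CL3 by 1.53 ± 0.17 (adjusted p = 5.34e-07) and for C4H by 0.77 ± 0.13 (adjusted p = 9.82e-05). From 6 to 12 h 4 of 10 changed (9.61% of all genes), and all 4 grew: PAL1 by 1.12 ± 0.16 (adjusted p = 0.000122), PAL2 by 1.11 ± 0.15 (adjusted p = 6.3e-05), 4CL3 by 0.89 ± 0.17 (adjusted p = 0.00148) and C4H by 0.55 ± 0.13 (adjusted p = 0.00896). The C4H call was lost with those groups alone in the fit (0.0776) and without the growth light libraries 6 h replicate 1 (0.0575) or 12 h replicate 2 (0.05). From 12 to 24 h the effect changed in 4 of 10 (14.8%), downward in all 4. Mean levels of PAL1 rose meanwhile in high light, from 1540 to 2123 CPM, and in growth light, from 361 to 847 CPM. Those of PAL2 (787 to 961 and 240 to 439 CPM) and 4CL3 (231 to 292 and 42.9 to 84.1 CPM) rose in both lights too. 4CL5 went from 12.4 to 10.4 CPM in high light and from 15.2 to 18.1 CPM in growth light. The effect on PAL1 changed by -0.77 ± 0.16 (adjusted p = 0.00296), which held in every alternative run. PAL2 changed by -0.58 ± 0.15 (adjusted p = 0.0111), 4CL3 by -0.63 ± 0.16 (adjusted p = 0.0123) and 4CL5 by -0.49 ± 0.16 (adjusted p = 0.0397). Without growth light 12 h replicate 2 the adjusted p was 0.0582 for PAL2, 0.052 for 4CL3 and 0.128 for 4CL5, and without high light 24 h replicate 1 it was 0.0671, 0.0683 and 0.104. The 4CL3 call was also lost without growth light 24 h replicate 2 (0.0791), and the 4CL5 call without any 1 of the 8 libraries (0.0525 to 0.14) and by DESeq2 (0.0629). The count was 1 without growth light 12 h replicate 2 or high light 24 h replicate 1, 2 without growth light 24 h replicate 2, and 7 with upper-quartile scaling or with no filter.

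From 24 to 48 h 7 of 10 changed (12.3% of all genes), and the effects of 6 of them dropped. PAL2 changed by -1.05 ± 0.15 (adjusted p = 6.68e-05), PAL1 by -1.01 ± 0.16 (adjusted p = 0.000195), PAL4 by -0.81 ± 0.17 (adjusted p = 0.00245) and C4H by -0.76 ± 0.13 (adjusted p = 0.000397). PAL3 went the other way, by 0.75 ± 0.17 (adjusted p = 0.0054), a call lost without high light 24 h replicate 1 (0.0537). The calls of 4CL3 and F5H were lost without some libraries, 4CL3 without growth light 24 h replicate 1 (0.0555) or high light 48 h replicate 1 (0.0514), and F5H without 5 of the 8, growth light 24 h replicate 1 (0.2), growth light 48 h replicate 1 (0.208), high light 24 h replicate 2 (0.172), high light 48 h replicate 1 (0.0701) and high light 48 h replicate 2 (0.109). The F5H call was also lost with upper-quartile scaling (0.0542) and with the compared groups alone (0.121). From 48 to 72 h 0 of 10 passed edgeR's adjusted threshold (1.14% of all genes), 1 had an unadjusted p below 0.05, and DESeq2 called 1. That gene was 4CL3, whose effect grew by 0.59 ± 0.17 (edgeR adjusted p = 0.0864, DESeq2 adjusted p = 0.0324).

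After 14 h back in growth light 3 of the 10 genes were higher and 5 lower than at 72 h of high light, where 18.6% of all tested genes were called in each direction. PAL1 stood at 294 and 328 CPM in recovery, against 625 and 638 CPM at the end of high light (-1.02 ± 0.12, adjusted p = 3.33e-07). PAL2 stood at 163 and 173 CPM in recovery, against 319 and 302 CPM at the end of high light (-0.89 ± 0.11, adjusted p = 9.63e-07). C4H stood at 254 and 282 CPM in recovery, against 474 and 476 CPM at the end of high light (-0.82 ± 0.09, adjusted p = 3.06e-07). These 3 genes of the first 2 steps were lower together. 4CL3 stood at 36.7 and 36.4 CPM in recovery, against 143 and 147 CPM at the end of high light (-1.99 ± 0.12, adjusted p = 4.62e-11), the largest change of the 10 in this comparison. F5H stood at 59.3 and 58.7 CPM in recovery, against 99.2 and 107 CPM at the end of high light (-0.81 ± 0.10, adjusted p = 1.4e-06), although its effect against growth light at 72 h had not passed the threshold. This comparison shares the 72 h high light libraries with the one against growth light. Of the 5 genes called lower at 72 h of high light, 3 were higher in recovery. PAL3 stood at 23.5 and 23.1 CPM in recovery, against 14.5 and 15.3 CPM at the end of high light (0.65 ± 0.13, adjusted p = 0.000457), 4CL5 at 13.8 and 15.0 CPM in recovery, against 9.82 and 8.84 CPM at the end of high light (0.63 ± 0.13, adjusted p = 0.000454), and 4CL2 at 43.9 and 53.2 CPM in recovery, against 33.4 and 36.2 CPM at the end of high light (0.48 ± 0.11, adjusted p = 0.0019). The 4CL2 call was lost without recovery replicate 2 (0.0602). PAL4 (-0.06 ± 0.14) and 4CL1 (0.02 ± 0.07) did not pass the threshold. Root markers moved in the same comparison, with 7 of 12 higher and 1 lower and sums of 130 to 148 CPM in recovery, against 88.4 to 92.1 CPM in high light at 72 h. Of the 6 xylem and secondary wall markers 4 were lower and 0 higher (0 also at an unadjusted p below 0.05 and by DESeq2), with sums of 107 to 119 CPM in recovery, against 122 to 144 CPM. Without high light replicate 2 none of the xylem markers was called, and 2 were called without either recovery library. Of the 5 shoot markers 3 were higher and 0 lower (0 also at an unadjusted p below 0.05 and by DESeq2), and 1 was called without high light replicate 1. The part of these markers in the results was not tested.

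Recovery was also set against growth light at 72 h, the last control sampled, which was 14 h younger, and this comparison shares the recovery libraries with the one above. Here 0 of 10 genes were higher (0 at an unadjusted p below 0.05 and 0 by DESeq2) and 6 lower, where 5.03% and 6.57% of all genes were called higher and lower. F5H stood at 59.3 and 58.7 CPM in recovery, against 101 and 104 CPM in growth light (-0.79 ± 0.10, adjusted p = 1.57e-05) and PAL2 at 163 and 173 CPM in recovery, against 247 and 246 CPM in growth light (-0.55 ± 0.11, adjusted p = 0.00156), and both calls held in every alternative run. PAL1 stood at 294 and 328 CPM in recovery, against 441 and 417 CPM in growth light (-0.46 ± 0.11, adjusted p = 0.0104), PAL4 at 12.4 and 16.3 CPM in recovery, against 21.1 and 21.1 CPM in growth light (-0.56 ± 0.14, adjusted p = 0.00958) and C4H at 254 and 282 CPM in recovery, against 348 and 342 CPM in growth light (-0.36 ± 0.09, adjusted p = 0.0122). Of all 13 groups, recovery had the lowest group means of PAL1, PAL2, PAL4, C4H, 4CL3 and F5H. 4CL1 was lower by the smallest margin (-0.20 ± 0.07, adjusted p = 0.0483), a call lost with no filter (0.092) and without any 1 of the 4 libraries (0.06 to 0.319). 4CL3, PAL3, 4CL5 and 4CL2, with effects of -0.28 ± 0.13, -0.31 ± 0.12, -0.30 ± 0.12 and -0.01 ± 0.11, were short of the threshold. With the compared groups alone 9 of 10 were called, with 4CL3 (0.00325), PAL3 (0.00437) and 4CL5 (0.0327) lower too. PAL3 was also called with no filter (0.0425). The count of 6 was 2 without growth light replicate 1 or recovery replicate 1, and 3 without growth light replicate 2. Without recovery replicate 1 the adjusted p was 0.132 for PAL1, 0.177 for PAL4 and 0.155 for C4H. Without growth light replicate 1 it was 0.0875, 0.0578 and 0.0792 for these genes, and without growth light replicate 2 it was 0.0594 for PAL4 and 0.067 for C4H. The 6 xylem and secondary wall markers summed to 107 to 119 CPM in recovery, against 154 CPM in both growth light libraries, with 3 of 6 lower and 0 higher (0 also at an unadjusted p below 0.05 and by DESeq2). Without growth light replicate 2, 1 xylem marker was called. Root markers summed to 130 to 148 CPM in recovery, against 156 to 158 CPM, with 0 of 12 called (4 lower at an unadjusted p below 0.05, 0 by DESeq2). The part of either in these results was not tested.

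In growth light alone, 0 of the 10 genes were higher and 5 lower at 72 h than at 0.5 h, where 6.17% and 8.09% of all genes were called higher and lower. At an unadjusted p below 0.05, 1 was higher, and DESeq2 called 0. PAL2 stood at 247 and 246 CPM at 72 h, against 434 and 454 CPM at 0.5 h (-0.85 ± 0.11, adjusted p = 2.05e-05), and PAL1 at 441 and 417 CPM, against 730.3 and 676 CPM (-0.71 ± 0.11, adjusted p = 0.000275). F5H stood at 101 and 104 CPM, against 152 and 163 CPM (-0.62 ± 0.10, adjusted p = 0.000211). These 3 calls held in every alternative run. Those of C4H (-0.35 ± 0.09, adjusted p = 0.0137) and 4CL3 (-0.48 ± 0.12, adjusted p = 0.0132) did not, and the count was 3 without either growth light 72 h library. Without replicate 1 or 2 at 72 h the adjusted p was 0.079 and 0.0983 for C4H and 0.0671 and 0.105 for 4CL3. The 4CL3 call was also lost without growth light 0.5 h replicate 1 (0.165) and with the compared groups alone (0.0698). The controls did not decline evenly. PAL1 averaged 361 ± 29.0 CPM in growth light at 12 h and 847 ± 46.1 CPM at 24 h (SD, n = 2 each), a wider step than any between 24 and 72 h. C4H averaged 333 ± 20.3 CPM at 12 h and 519 ± 20.3 CPM at 24 h, and 4CL3 42.9 ± 1.38 and 84.1 ± 12.6 CPM. These steps between controls were not tested. Of the 5 shoot markers 3 were lower and 0 higher (0 also at an unadjusted p below 0.05 and by DESeq2) at 72 h than at 0.5 h. Their sums, which follow the most abundant markers, were 15855 to 16168 CPM at 72 h, against 21125 to 21474 CPM at 0.5 h. The count of 3 was 1 with the compared groups alone and without growth light 0.5 h replicate 1 or either 72 h library. Of the 12 root markers 2 were higher and 0 lower (1 at an unadjusted p below 0.05, 0 by DESeq2), and 0 were called with the compared groups alone or without any 1 of 3 libraries, 0.5 h replicate 1 and both at 72 h. Their part in the lower levels at 72 h was not tested.

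Genes with the most similar pattern were ranked by Pearson's r between the 13 group means of log2 CPM, given here as a description of groups that share their libraries. Among the 10 genes, PAL1 was most like C4H (r = 0.9816) and PAL2 (0.9712), and C4H was also close to 4CL3 (0.9439). PAL3 ran opposite to 4CL3 (r = -0.8393) and C4H (-0.7824). Over all other tested genes with at least 5 CPM in a group, the 3 most like 4CL3 were TT4 (0.9945), which encodes chalcone synthase (CHS), FLS1 (0.994), which encodes flavonol synthase, and TT5 (0.9878), which encodes chalcone isomerase. The nearest to C4H were ACC1 (0.9835), the acetyl-CoA carboxylase that supplies cytosolic malonyl-CoA, AT1G06000 (0.9772) and RHM1 (0.9741), a UDP-rhamnose synthase. ACC1 was also nearest to PAL1 (0.9692), followed by RHM1 (0.9665) and the glycosyltransferase UGT76B1 (0.9654), and nearest to PAL2 (0.9622), followed by GulLO5 (0.9538) and WRKY31 (0.9384).

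PAL3 was most like AT3G50270 (r = 0.9841), AT5G14370 (0.9747) and MEE47 (0.974), and PAL4 most like GLP5 (0.937), AT5G35200 (0.9347) and AT5G54780 (0.9288). 4CL5 was most like AT2G39430 (0.9725), GH9C1 (0.9507), an endoglucanase gene, and UCC1 (0.9487), a uclacyanin. F5H was nearest to AT3G57157 (0.9547), UGD3 (0.9498), a UDP-glucose dehydrogenase, and PGSIP1 (0.9498), which adds glucuronic acid to xylan. 4CL1 was nearest to AAT (0.9298), an aminotransferase of the aspartate and prephenate type, NAS2 (0.8954) and AT4G11290 (0.8899). 4CL2 had the weakest neighbours, MYB10 (0.9202), ARR9 (0.8575) and AT1G52120 (0.8427).

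**Figure D4:**
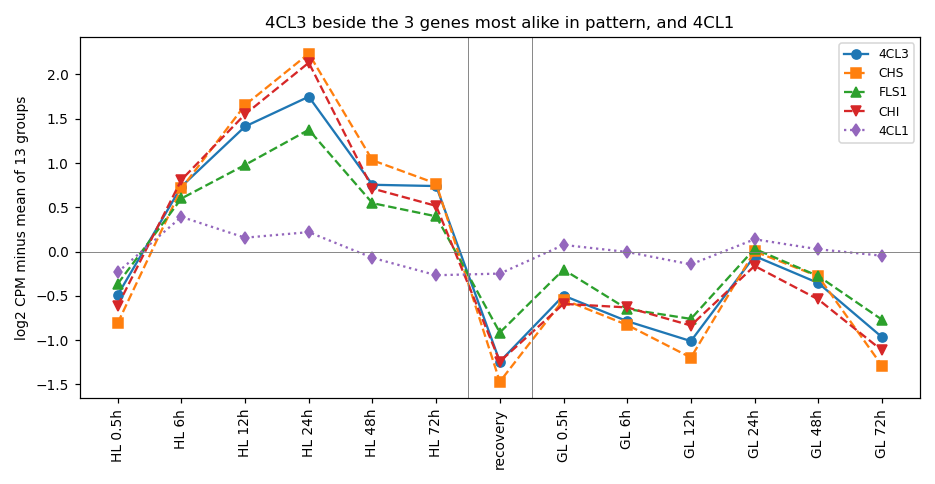
Difference of each group mean of log2 CPM from the mean of the gene over the 13 groups (y axis), for 4CL3, the 3 genes most like it in pattern, CHS (TT4), FLS1 and CHI (TT5), and 4CL1. High light groups come first, then recovery, then growth light, and CHS, FLS1 and CHI track 4CL3 with r of 0.9945, 0.994 and 0.9878 while 4CL1 stays near 0.

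Genes around the general steps were counted in lists by role. Upstream, the supply of phenylalanine runs through the shikimate and arogenate enzymes, and 15 of 19 such genes were higher and 1 lower at 6 h (22.9% and 18.2% of all genes) and again at 12 h (24.1% and 21.1%), with list medians of 0.56 and 0.47. At 24 h 13 were higher and 1 lower (26% and 23.9%). ADT3, an arogenate dehydratase that makes phenylalanine, rose by 1.12 ± 0.09 (adjusted p = 1.86e-09) at 6 h and CM1, a plastid chorismate mutase, by 1.10 ± 0.06 (adjusted p = 5.53e-12). ADT4 rose by 1.06 ± 0.09 (adjusted p = 1.51e-09) at 12 h. In recovery against high light at 72 h 10 of the 19 were lower and 1 higher (18.6% of all genes in each direction). The count of 11 called there was 7 without recovery replicate 1 and 7 with no filter.

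Downstream, all 8 flavonoid genes were higher in high light from 6 to 72 h, where 22.3% to 26% of all genes were higher, with a list median of 3.56 at 12 h. All 8 were lower in recovery than at 72 h of high light (median -2.49), where 18.6% of all genes were lower. CHS, the first enzyme after 4CL in that branch, stood at 3126 and 3057 CPM in high light, against 467 and 392 CPM in growth light at 12 h (2.85 ± 0.14, adjusted p = 8.63e-13). At 12 h DFR and LDOX, late enzymes of the anthocyanin route, rose by 5.23 ± 0.24 (adjusted p = 2.43e-13) and by 4.92 ± 0.23 (adjusted p = 3.63e-13). At 0.5 h 0 of 8 were called by edgeR, where 13.5% and 8.29% of all genes were higher and lower. At edgeR's unadjusted p below 0.05, 1 was higher and 1 lower, DESeq2 called 0, and 3 were called with no filter. Of 9 monolignol genes, which build the lignin precursors, 7 were higher and 0 lower at 6 and at 12 h, where 22.9% and 24.1% of all genes were higher (0 lower also at an unadjusted p below 0.05 and by DESeq2). At 72 h 4 were higher and 4 lower (22.3% of all genes in each direction). HCT, which takes coumaroyl-CoA into that branch, was at 0.60 ± 0.07 (adjusted p = 4.83e-07) at 12 h and -0.41 ± 0.07 (adjusted p = 8.41e-05) at 72 h. The count of 8 called at 72 h was 4 without growth light replicate 1 and 5 without high light replicate 1. Of 5 genes of lignin polymerisation 4 were higher and 1 lower at 24 h (26% and 23.9% of all genes), but 2 were called without growth light replicate 1 or high light replicate 2 and 3 with upper-quartile scaling. At 72 h 3 of them were lower and 0 higher (0 also at an unadjusted p below 0.05 and by DESeq2), where 22.3% of all genes were called in each direction. CCoAOMT1 was at 0.65 ± 0.06 (adjusted p = 2e-08) at 12 h and CCR1 at 0.55 ± 0.08 (adjusted p = 1.44e-05).

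Of 7 sinapate ester genes 6 were tested, and at 24 h 5 were higher and 1 lower (26% and 23.9% of all genes). UGT84A2, which makes sinapoylglucose, rose by 2.12 ± 0.09 (adjusted p = 2.92e-14), and UGT84A3 by 2.64 ± 0.13 (adjusted p = 1.92e-13). The gene that fell was SNG1, which moves sinapate from glucose to malate, at 41.1 and 36.4 CPM in high light, against 224 and 231 CPM in growth light at 6 h (-2.55 ± 0.11, adjusted p = 1.65e-13). In recovery SNG1 stood at 214 and 214 CPM, against 52.4 and 53.0 CPM at 72 h of high light (2.02 ± 0.11, adjusted p = 5.85e-12). REF1, which oxidises sinapaldehyde and coniferaldehyde to acids, was at 0.40 ± 0.07 (adjusted p = 8.7e-05) at 6 h and -0.01 ± 0.07 (adjusted p = 0.892) at 12 h.

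Kelch F-box proteins mark PAL enzymes for degradation, so their genes act on the same step at the protein level, which these data do not measure. Of 4 such genes 3 were tested, and at 6, 24, 48 and 72 h all 3 were lower, where 18.2%, 23.9%, 23% and 22.3% of all genes were lower. At 0.5 and 12 h 2 of the 3 were lower (8.29% and 21.1%). KFB20 stood at 4.62 and 4.45 CPM in high light, against 16.1 and 29.0 CPM in growth light at 0.5 h (-2.32 ± 0.20, adjusted p = 7.8e-09), and at 1.10 and 0.765 CPM in high light, against 10.7 and 8.73 CPM in growth light at 24 h (-3.38 ± 0.28, adjusted p = 1.09e-09). KFB50 fell at each time, with effects between -1.59 (0.5 h) and -1.13 (24 h), and KFB01 reached -0.93 ± 0.14 (adjusted p = 1.17e-05) at 48 h. In recovery all 3 were higher than at 72 h of high light, where 18.6% of all genes were higher. KFB20 stood at 20.5 and 23.3 CPM in recovery, against 2.56 and 2.52 CPM (3.11 ± 0.24, adjusted p = 9.46e-10). KFB39 had too few counts to be tested. The fall of KFB20 and KFB50 at 0.5 h came while PAL1 and PAL2 transcripts had not passed the threshold.

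Of 18 regulators of phenylpropanoid genes, 7 were higher and 1 lower at 0.5 h (13.5% and 8.29% of all genes), 12 and 1 at 12 h (24.1% and 21.1%), and 8 and 1 at 72 h (22.3% in each direction). In recovery 0 were higher (0 at an unadjusted p below 0.05 and by DESeq2) and 8 lower than at 72 h of high light (18.6% in each direction). HY5, a bZIP factor of light signalling, rose by 1.13 ± 0.10 (adjusted p = 5.71e-09) at 0.5 h. PAP1, a MYB activator of anthocyanin genes, rose by 1.60 ± 0.27 (adjusted p = 7.68e-05) at 0.5 h and 3.60 ± 0.20 (adjusted p = 3.25e-12) at 12 h. MYB4, a repressor known to act on C4H, was at -0.06 ± 0.07 (adjusted p = 0.593) at 0.5 h, 0.44 ± 0.06 (adjusted p = 5.55e-06) at 12 h and -0.17 ± 0.06 (adjusted p = 0.0314) at 48 h.

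**Figure D5:**
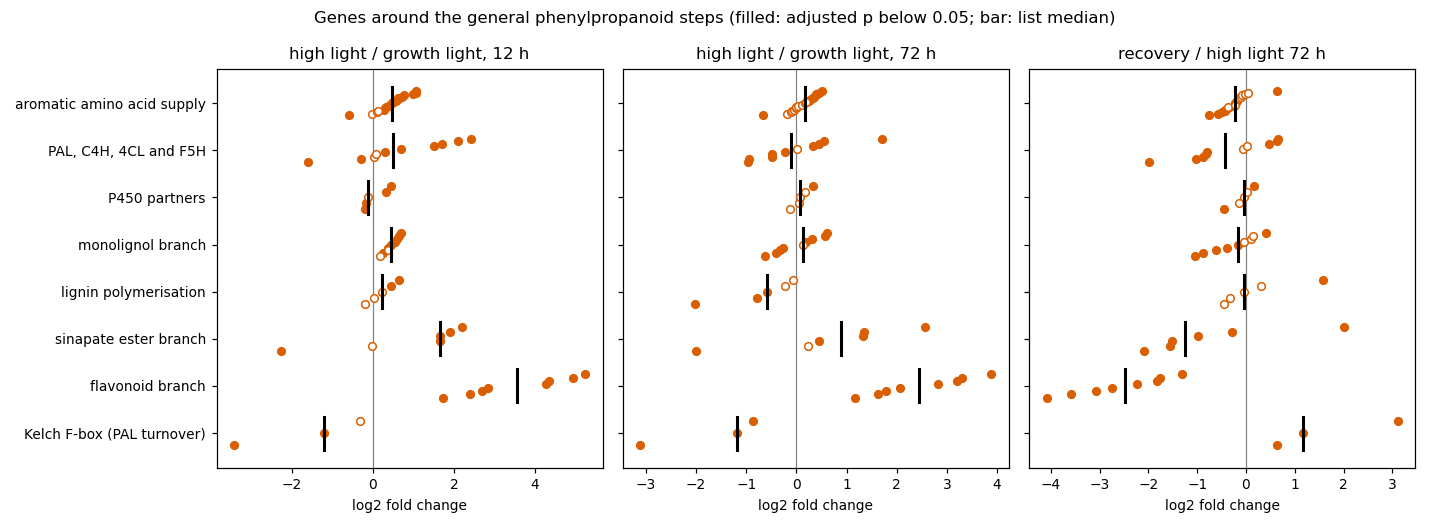
Log2 fold changes (x axis) of the genes in each list (y axis), for high light over growth light at 12 h and at 72 h and for recovery over high light at 72 h. Points are genes, filled where the adjusted p was below 0.05, and the bar is the list median. Flavonoid genes lie right of 0 in both high light panels and left of 0 in the recovery panel, with medians of 3.56, 2.44 and -2.49, and the 3 Kelch F-box genes lie on the other side of 0.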

How the data were processed

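RNA of whole seedlings was sequenced as stranded mRNA libraries, single-end, per the labels' protocols. The authors deposited raw whole-number counts per gene, 1 file per library, made with TopHat2 2.1.1, HTSeq 0.6.0 and edgeR on TAIR10, per the submitters' processing notes. What each tool did, and the strand rule, was not given in the sources used here. Counts of overlapping genes or near-identical copies are therefore less certain.

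edgeR 4.0.16 in R 4.3.3 was used for the tests. Genes passed filterByExpr by group at a minimum count of 10 (21449 of 33602), were scaled by TMM factors of 0.924 to 1.09, and were fitted with 1 mean for each of 13 groups in all 26 libraries, which gave a common dispersion of 0.00428. The quasi-likelihood test was adjusted by Benjamini-Hochberg over all tested genes, with a threshold of 0.05. The SE is the log2 fold change divided by the square root of F. For patterns, log2 CPM took a prior count of 2. Gene names, exons, promoter windows and 50-base windows came from RefSeq TAIR10.1, which is not stated to be the authors' annotation, and all 10 genes matched.

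The 10 genes, the lists and the tests were chosen with earlier results of these data known. All 10 genes were named, and of the lists the 3 called genes of largest change at 5 CPM or more in a comparison plus genes picked by role. The test was also run on simulated counts, drawn with the fitted dispersions and with few changed genes. That run does not cover changes as broad as those called here. Alternatives were RLE and upper-quartile factors, no filter, DESeq2 1.42.0, a replicate block, the compared groups alone, each library left out, and, added after seeing the data, all growth light groups as the control. Same-numbered libraries of different groups showed little shared deviation, and whether they were grown or harvested together is not known.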

Additional observations from a re-analysis of the deposited data

Results flagged for a closer look

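The effect of high light differed between neighbouring times, by a test of the difference itself, for the genes below. Values are the log2 effect (high light over growth light) at the later time minus that at the earlier time, with edgeR's quasi-likelihood test and Benjamini-Hochberg adjustment over all tested genes, and neighbouring tests share libraries. No value here comes from a group of 4 or more libraries, so single outlying libraries were not tested for. Between 0.5 and 6 h the difference was 1.20 for PAL1 (adjusted p = 6.54e-06), 0.69 for PAL2 (adjusted p = 0.00123), 0.77 for C4H (adjusted p = 9.82e-05), 0.70 for 4CL1 (adjusted p = 4.34e-06), 1.53 for 4CL3 (adjusted p = 5.34e-07) and 0.70 for F5H (adjusted p = 0.000406). Between 6 and 12 h the difference was 1.12 for PAL1 (adjusted p = 0.000122), 1.11 for PAL2 (adjusted p = 6.3e-05), 0.55 for C4H (adjusted p = 0.00896) and 0.89 for 4CL3 (adjusted p = 0.00148). Between 12 and 24 h the difference was -0.77 for PAL1 (adjusted p = 0.00296), -0.58 for PAL2 (adjusted p = 0.0111), -0.63 for 4CL3 (adjusted p = 0.0123) and -0.49 for 4CL5 (adjusted p = 0.0397). Mean levels of PAL1, PAL2 and 4CL3 rose in both lights over that time. Between 24 and 48 h the difference was -1.01 for PAL1 (adjusted p = 0.000195), -1.05 for PAL2 (adjusted p = 6.68e-05), 0.75 for PAL3 (adjusted p = 0.0054), -0.81 for PAL4 (adjusted p = 0.00245), -0.76 for C4H (adjusted p = 0.000397), -0.68 for 4CL3 (adjusted p = 0.00692) and -0.43 for F5H (adjusted p = 0.037). PAL3 was the exception between 24 and 48 h, where its difference was positive and those of the other 6 genes negative. The 12 to 24 h difference of 4CL5 was lost by DESeq2 (adjusted p = 0.0629) and without any 1 of the 8 libraries compared (0.0525 to 0.14). No explanation of these differences was tested.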

How the results depend on the processing

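The replicate block, with the replicate number as a term, left every count of called genes among the 10 within 1.5 times: 3 at 0.5 h, and 6 for recovery against growth light. Same-numbered libraries showed little shared deviation. Their deviations correlated at -0.144 to 0.158 (median -0.00607) over 78 pairs of groups, and 2 pairs exceeded 0.1. The 78 included pairs sampled at the same time, which were not looked at apart. RLE factors moved no count of the 10 genes by over 1.5 times. Upper-quartile scaling gave 7 in place of 4 genes for the 24 minus 12 h difference, as did the fit with no filter. For the 72 minus 48 h difference, 1 gene in place of 0 was called with no filter, with the compared groups alone and by DESeq2. With all growth light groups as the control, 6 in place of 3 genes were called at 0.5 h. Under that control the effects of PAL2 at 0.5 h (0.32, adjusted p = 0.00222), 4CL2 at 12 h (-0.46, 6.08e-05), PAL2 at 72 h (-0.11, 0.265) and F5H at 72 h (-0.52, 5.17e-06) turned in sign, and the cause was not tested. The steps between growth light groups are given in the report. Leaving out 1 library gave 2 to 5 genes in place of 6 for recovery against growth light, 3 to 5 in place of 5 for growth light at 72 h against 0.5 h, 1 to 4 in place of 4 for the 24 minus 12 h difference, and 0 for the 72 minus 48 h difference. All 7 calls at 6 h held in every alternative other than that control, as did 7 of 8 at 12 h, 6 of 9 at 24 h, 4 of 7 at 48 h, 6 of 9 at 72 h, 7 of 8 for recovery against high light and 2 of 6 for recovery against growth light. Over all tested genes, calls at 0.5 h numbered 4671, but 2984 with the compared groups alone and 7917 with all growth light groups as the control. For recovery against growth light 2489 became 4470 with the compared groups alone and 1035 to 1376 with a library left out. For growth light at 72 h against 0.5 h 3058 became 945 with the compared groups alone. For the differences, the compared groups alone gave 4171 in place of 6347 (6 minus 0.5 h), 1289 in place of 2062 (12 minus 6 h) and 1277 in place of 244 (72 minus 48 h), and no filter gave 680 for the last. Leaving out 1 library gave 15 to 101 in place of 244 for that difference, 1123 to 2123 in place of 2062 (12 minus 6 h), 1610 to 2965 in place of 3165 (24 minus 12 h) and 1563 to 2426 in place of 2648 (48 minus 24 h), and 1207 to 2770 in place of 3058 for growth light at 72 h against 0.5 h.

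With 2 libraries per group, leaving out 1 library leaves a group with a single sample, which is assumed to vary like the other groups. The effects are relative to all RNA sequenced, and the annotated roles concern enzymes that were not measured here.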
